A study of Homo sapiens with 8 samples.

Results

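Long noncoding RNAs are transcripts that are processed like mRNAs in most cases but are not translated, and several of them act in the nucleus as scaffolds. MALAT1 accumulates in nuclear speckles, where splicing factors are stored. NEAT1 is the RNA core of paraspeckles and is made as a short isoform and as a long isoform that shares its 5′ part. HOTAIR and HOTAIRM1 are transcribed from the HOXC and HOXA clusters. PVT1 is the neighbor of MYC, GAS5 hosts small nucleolar RNAs in its introns, and TUG1, MIAT, DLEU2 and HULC are other transcripts often studied in cancer cells. 5-aza-dC, a nucleoside analog that traps DNA methyltransferases, lowers DNA methylation when cells divide and can raise transcripts from methylated promoters, and TET1 is a dioxygenase that oxidizes 5-methylcytosine.

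The 10 transcripts named above were looked up by gene name among the 36337 gene names of a human expression array, and 9 of the 10 were found. No probe carried the name DLEU2, and it was not analysed here. The other 9 were covered by 63 distinct probes of 60 bases each, namely 8 for MALAT1, 6 for NEAT1, 9 for HOTAIR, 1 for HOTAIRM1, 11 for PVT1, 1 for GAS5, 12 for TUG1, 14 for MIAT and 1 for HULC. Of these 63 probes, 45 could be tested because both arrays of some condition had them above background, 39 were above background on all 8 arrays and 11 on none. The accession of 46 probes was found in RefSeq, in every case under the same symbol.

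All RNA was from HCT116, a line of human colorectal cancer cells, and from 4 clones made of it. CONT1 and CONT2 served as controls and came from cells given a negative control plasmid of the same vector. TET1-KD1 and TET1-KD2 each stably expressed 1 of 2 different artificial miRNAs against *TET1*. All were isolated as GFP-positive colonies, and all were grown under 0.6 mg/ml G418. An untreated culture of each clone was analyzed beside one that had received 1 µM 5-aza-dC over 72 h, renewed every 24 h, so that each condition had 2 arrays from 2 clones. The titles of the arrays and a separate treatment field conflict on which arrays were treated, and the titles were followed. Both arrays of treated control clones lay on slide 2 and the other 6 arrays on slide 1, so that slide and treatment cannot be told apart in the response of the control clones, in the comparison of treated clones or in the difference in response. The response of the knockdown clones and the comparison of untreated clones lie within slide 1. On slide 2, 2 spike-in transcripts of medium brightness were lower by 1.00 on the log2 scale before scaling, against SDs of 0.0364 and 0.0525 among the 6 arrays of slide 1. The array measures bulk RNA, in which less RNA per cell and fewer cells that make it cannot be told apart.

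The targeted gene was examined first. The brightest probe for *TET1* (chromosome 10, hg19 70332072 to 70332131) read 9.70 in CONT1 and 9.75 in CONT2 on the log2 scale without drug, and 8.65 in TET1-KD1 and 9.41 in TET1-KD2. Both knockdown clones lay below both control clones, by 0.69 ± 0.29 (SE) on average, but this did not pass the test (limma, adjusted p = 0.61). The *TET1* probe A_19_P00806490 read 6.12 and 6.10 in untreated CONT1 and CONT2 and 4.56 and 5.71 in untreated TET1-KD1 and TET1-KD2. Its change was -0.98 (limma, adjusted p = 0.585). The *TET1* probe A_23_P322756, above background on 2 arrays, read 4.95 and 4.38 in these control clones and 2.19 and 2.85 in these knockdown clones. Among markers of colorectal epithelium, 5 of 8 were above background on all 8 arrays, and VIL1 was above background on 2 arrays. The summed signal of these 8 markers was 118000 to 141200 in untreated and 138500 to 160400 in treated control clones. In the knockdown clones it was 129000 to 149500 without and 170100 to 186300 with the drug. Of 4 leukocyte markers, 2 were above background on all 8 arrays, and their summed signal was 126 to 166 in untreated control clones, 1264 to 1597 in treated control clones, 110 to 139 in untreated knockdown clones and 391 to 829 in treated knockdown clones. The summed signal of 4 fibroblast markers was 329 to 360 and 652 to 849 in untreated and treated control clones and 339 to 447 and 590 to 775 in the knockdown clones, with *COL1A2* and *PDGFRA* above background on no array. That of 3 endothelial markers, none above background on all 8 arrays, was 113 to 115 and 237 to 263 in the control clones and 94.6 to 107.3 and 193 to 286 in the knockdown clones. The part of these markers in the results that follow was not tested.

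After 5-aza-dC, 18 of the 45 tested probes passed the test in the control clones (limma over all 8 arrays, adjusted p below 0.05), 9 higher and 9 lower. These are 20% of the tested probes in each direction, and among all 27287 tested probes 19.2% were called higher and 22.6% lower, so the shares for the named transcripts were near the background. Of the 9 higher, 2 MIAT probes had passed the filter only through treated arrays, where they are high. Only 4 of the 45 probes were called in the knockdown clones, all lower and all of PVT1, where the background was 8.91% higher and 2.90% lower. No probe was called between untreated knockdown and control clones (background 0.00733% in each direction). At an unadjusted p below 0.05 this comparison gave 14 of the 45 probes higher and 0 lower. Among all 27287 tested probes 2253 passed that threshold, in both directions together. All 14 were probes of MALAT1 and TUG1, and probes of the same transcript share their RNA and are not replicates. The plain t test with Benjamini-Hochberg adjustment also gave 0 calls in this comparison. After 5-aza-dC, the knockdown clones had 7 probes higher and 2 lower than the control clones, against a background of 11.9% and 6.91%. The response itself differed between the kinds of clone for 4 probes, 2 with a higher and 2 with a lower response in the knockdown clones (background 4.02% and 1.56%).

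**Figure D1:**
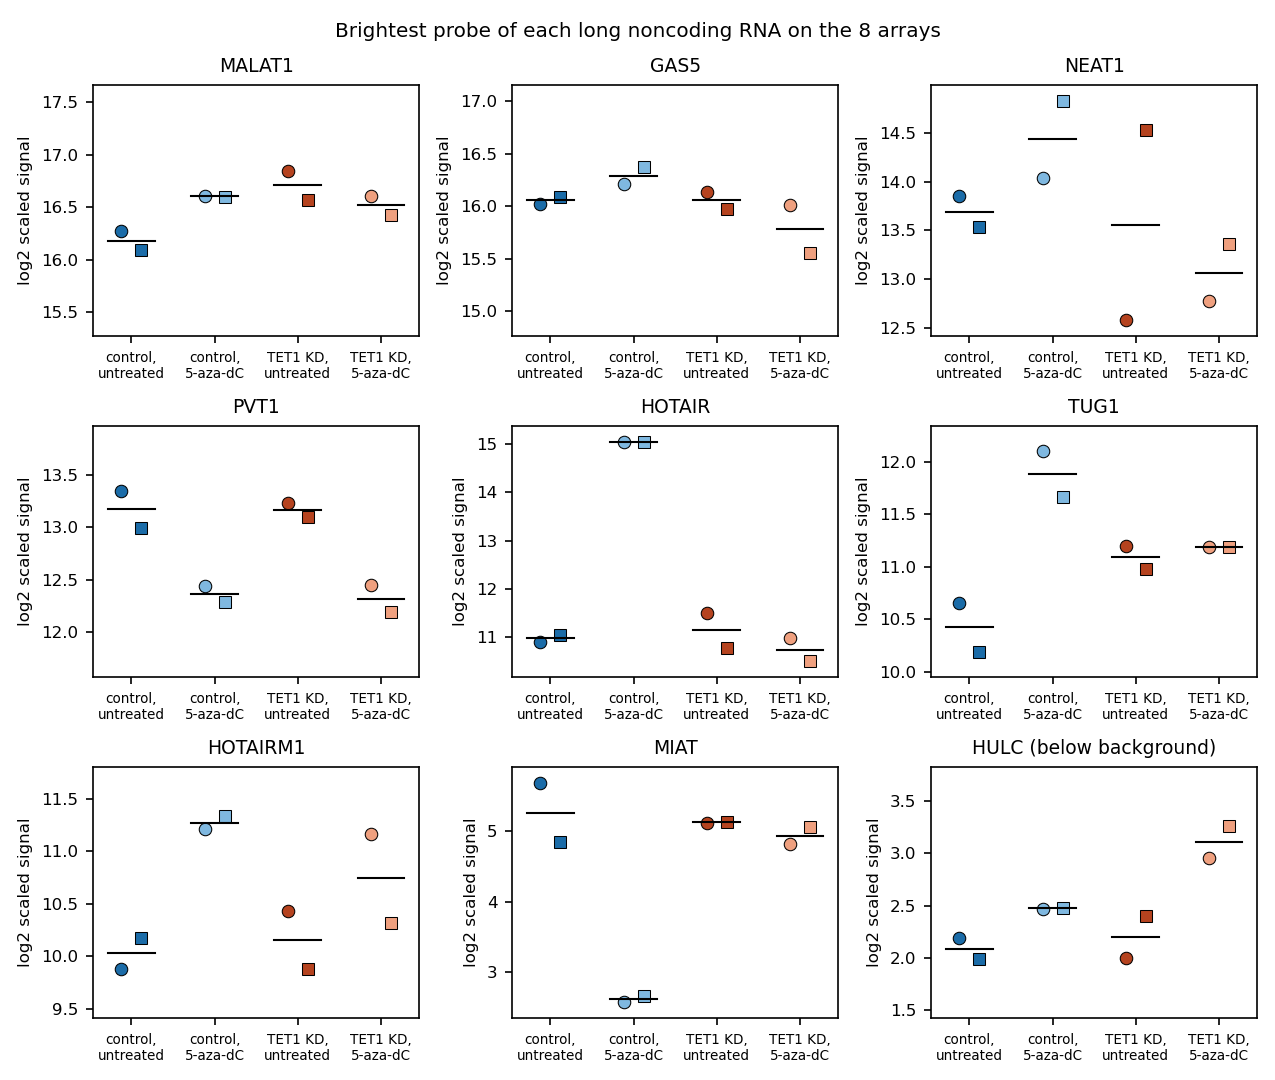
Log2 scaled signal of the brightest probe of each of the 9 transcripts (vertical axis, with its own range in each panel) in the 4 conditions; circles are clone 1 and squares clone 2 of a kind, and the bar is their mean. The HOTAIR probe stands at 15.03 and 15.04 in the treated control clones and between 10.51 and 11.51 elsewhere, the PVT1 probe is lower on all 4 treated arrays, and the HULC probe was below background throughout.

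In the control clones, HOTAIR had the largest change among the 45 tested probes. Its 9 probes lie on the minus strand of chromosome 12, and the brightest of them, A_19_P00329806 (hg19 54356096 to 54356155), lies near the 3′ end of the transcript. Its sequence is shown with that of A_19_P00330464, which lies 263 bases upstream (54356419 to 54356478), and of A_21_P0010501, the probe farthest downstream (54350159 to 54350218), because these probes moved differently. The last of these is annotated to another transcript model than the other probes shown. Capitals mark a run of alternating G and T.
A_19_P00329806: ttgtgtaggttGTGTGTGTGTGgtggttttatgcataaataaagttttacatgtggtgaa
A_19_P00330464: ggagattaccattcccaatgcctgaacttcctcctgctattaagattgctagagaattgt
A_21_P0010501: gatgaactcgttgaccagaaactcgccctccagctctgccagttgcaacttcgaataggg

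The log2 signal of the HOTAIR probe A_19_P00329806 was 10.91 in CONT1 and 11.05 in CONT2 before treatment, and 15.03 and 15.04 after it. In the knockdown clones it was 11.51 and 10.78 before, and 10.98 and 10.51 after 5-aza-dC. The treated control clones thus stood apart from all other arrays, whose values overlapped. The rise in the control clones was 4.05 ± 0.28 (SE) on the log2 scale, or 16.6-fold (adjusted p = 0.00023), whereas the change in the knockdown clones was -0.40 ± 0.28 (adjusted p = 0.412). The difference in response was -4.45 ± 0.40 (adjusted p = 0.00786), a call lost only when the untreated CONT1 array was left out among 21 alternatives. These alternatives were run on this 1 probe and do not include a mean over the 4 tested HOTAIR probes. The treated knockdown clones were 4.29 lower than the treated control clones (adjusted p = 0.00119).

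None of the other 3 tested HOTAIR probes was called higher in the control clones. The upstream neighbor A_19_P00330464 had log2 signals of 5.35 and 5.5 in the untreated and 6.0 and 5.94 in the treated control clones, a change of 0.55 ± 0.72 (adjusted p = 0.568, and 0.0315 with a term per clone). In the knockdown clones this probe differed more between the clones than with the drug, at 3.35 and 5.19 before and 3.88 and 5.57 after treatment. The downstream probe A_21_P0010501 carries the HOTAIR name but lies 5877 bases beyond A_19_P00329806 and is annotated to another transcript model. Whether it reads the same RNA as the other HOTAIR probes was not tested. Its signal went from 6.04 and 5.97 to 4.71 and 2.99 in the control clones, where neither treated array was above background. It fell at least 2.55-fold (log2 change -2.15, adjusted p = 0.018), a call made in 12 of 18 alternatives, over which the change ran from -3.02 to -0.48. It was lost when either untreated control array was left out, when only the 4 arrays compared were fitted, with the probe's own variance and with normexp. It was 6.07 and 6.29 before and 5.66 and 5.86 after treatment in the knockdown clones. The last tested probe, A_19_P00326808, changed by -0.81 in the control clones (adjusted p = 0.104) and by -0.05 in the knockdown clones (adjusted p = 0.943). The remaining 5 HOTAIR probes were not tested, and 2 of them were above background on no array. Of the other 3, A_21_P0010502 changed by 1.49 in CONT1 and 2.41 in CONT2, with 1 treated control array above background, and A_19_P00330814 by 1.29 in CONT1, with no value for treated CONT2.

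The run of alternating G and T in the HOTAIR probe was not particular to it. The letters GTGTGTGTGT occur in 61 of the 50599 probes (0.121%), searched on the probe strand, of which 60 were tested, and in no other probe for the named transcripts. Their complement occurs in none of the 63 probes. Of these 60 tested probes, 46 were called higher and 0 lower in the control clones (76.7%, against 19.2% of all tested probes). Apart from HOTAIR, the other 59 such probes had a median response of 2.06 in the control clones, with a range of -1.04 to 5.77, and of -0.17 in the knockdown clones. The median over all tested probes was -0.08 and -0.07. Of the 59 probes, 3 had a larger rise in the control clones than the HOTAIR probe. The part of the repeat and of the slide in the HOTAIR value was not tested.

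**Figure D2:**
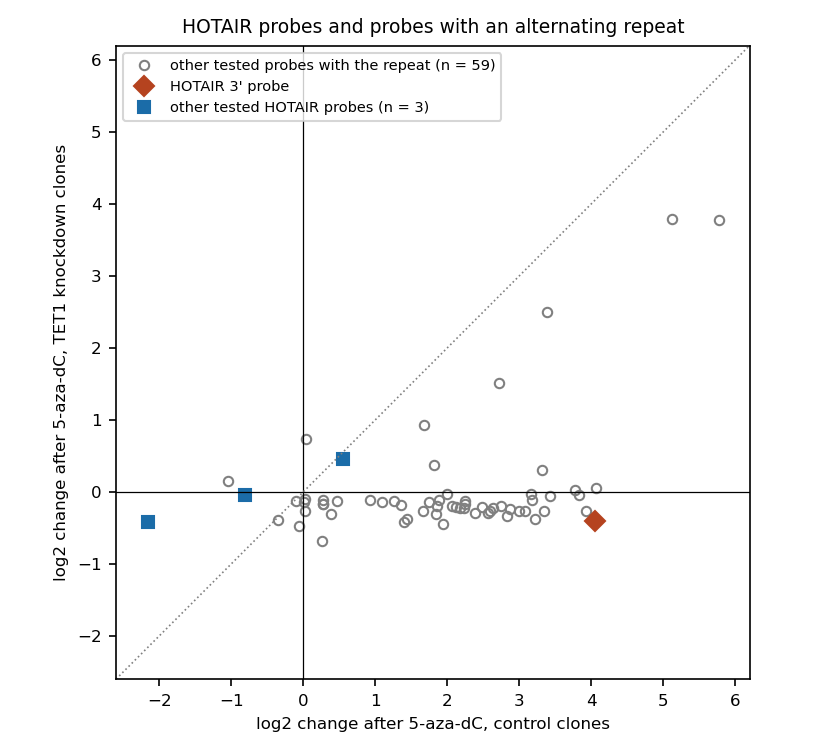
Log2 change after 5-aza-dC in the control clones (horizontal) and in the *TET1* knockdown clones (vertical) of the HOTAIR 3′ probe (diamond), of the other 3 tested HOTAIR probes (squares) and of the other 59 tested probes that hold the same repeat of 10 bases (circles); the dotted line marks equal changes. Most probes with the repeat lie along the horizontal line at 0, to the right, as the HOTAIR 3′ probe does at 4.05 and -0.40, and the other HOTAIR probes lie apart from it.

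By the smallest difference in profile, the 3 genes most like the HOTAIR probe over the 8 arrays were *NHLH2*, *ARHGEF15* and *LENG8*, with root mean square differences of 0.205, 0.215 and 0.243 on the log2 scale after centering. The probes for *ARHGEF15* and *LENG8* hold the same repeat, and the one for *NHLH2* does not. Among the genes beside HOTAIR in the HOXC cluster, *HOXC12*, which encodes a homeodomain transcription factor, was not above background in untreated clones and reached 6.65 and 6.49 with the drug in CONT1 and CONT2 and 4.42 and 7.04 in TET1-KD1 and TET1-KD2. It was at least 4.78-fold higher after treatment in the control clones and at least 2.51-fold higher in the knockdown clones. *HOXC10*, of the same family, was at least 3.27-fold and 2.01-fold higher. Both genes passed the filter only through the treated arrays, so these bounds are descriptions. *HOXC13*, above background on all arrays, changed by -1.01 in the control clones (adjusted p = 0.0887) and by 0.15 in the knockdown clones (adjusted p = 0.847). Of 22 tested genes beside the named transcripts, 3 were called higher and 3 lower in the control clones, *HOXC10* and *HOXC12* among the higher, and 1 higher and 3 lower in the knockdown clones, where the background was 19.2% and 22.6%, and 8.91% and 2.90%. Their median change was -0.09 and -0.03, beside -0.08 and -0.07 over all tested probes.

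HOTAIRM1, the myeloid transcript of the HOXA cluster, was read by 1 probe, A_21_P0000781 (chromosome 7, 27139801 to 27139860, plus strand).
A_21_P0000781: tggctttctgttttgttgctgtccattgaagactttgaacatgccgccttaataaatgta
Its log2 signal was 9.88 and 10.18 in the untreated and 11.21 and 11.34 in the treated control clones. In the knockdown clones it was 10.43 and 9.88 before and 11.17 and 10.32 after treatment. All 4 clones were higher with the drug than without, and the groups did not overlap in the control clones but did in the knockdown clones. The rise was 1.25 ± 0.33 in the control clones (2.38-fold, adjusted p = 0.0251) and 0.59 ± 0.33 in the knockdown clones (adjusted p = 0.301), and the difference between these responses, -0.66 with a 95% interval of -1.78 to 0.47, did not pass the test (adjusted p = 0.432). The call in the control clones was lost when any 1 of the 4 arrays was left out (adjusted p = 0.0703 to 0.12). *HOXA2* changed by 1.11 in the control clones (adjusted p = 0.0799) and *HOXA3* by 0.89 (adjusted p = 0.239), both homeobox genes beside it. The genes most like the HOTAIRM1 probe were *FSTL1*, *ZNF160* and *NAT1*, with root mean square differences of 0.145, 0.156 and 0.163.

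PVT1 fell, and it was the one named transcript with calls in both kinds of clone. Its 11 probes, all above background on all 8 arrays, spread over 306562 bases of chromosome 8 (128806902 to 129113463), and 2 pairs of them overlap. In the control clones, 7 of the 11 were called lower, by 0.60 to 1.82 on the log2 scale, and in the knockdown clones 4 were called lower. The brightest probe, A_33_P3357748, the last toward the 3′ end, read 13.35 in CONT1 and 12.99 in CONT2 before the drug and 12.44 and 12.29 after it, and 13.23 and 13.10 before and 12.45 and 12.19 after treatment in the knockdown clones. Both treated groups lay below both untreated groups. It fell by 0.81 ± 0.19 in the control clones (adjusted p = 0.0174) and by 0.84 ± 0.19 in the knockdown clones (adjusted p = 0.0389), with a difference in response of -0.04 (95% interval -0.69 to 0.61). The call in the control clones was lost without untreated CONT1 and without either treated control array, and that in the knockdown clones when any 1 of the 4 arrays was left out and after quantile normalization.

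The fall of PVT1 at its 5′ end was larger in the control clones. The first probe, A_33_P3248227, went from 11.45 and 11.25 to 9.51 and 9.55 in the control clones and from 11.15 and 11.11 to 10.59 and 10.42 in the knockdown clones. All 4 clones fell, by 1.82 ± 0.15 on average in the control clones (adjusted p = 0.000445) and by 0.62 ± 0.15 in the knockdown clones (adjusted p = 0.0492). The difference in response was 1.19 ± 0.21 (adjusted p = 0.0351, and 0.0526 with a term per clone), and it was not called when any 1 array was left out. The PVT1 probe A_19_P00321075, 301939 bases downstream, fell by 1.82 in the control and by 0.73 in the knockdown clones (adjusted p = 0.000717 and 0.0478). None of the 4 falls in the knockdown clones passed the test when both treated control arrays were left out. The spread then came from the 6 arrays of slide 1, and the fall of the brightest probe had an adjusted p of 0.0694 at the same size. With no filter on dim probes none of the 4 passed either, and the brightest probe had an adjusted p of 0.0864 (limma). With a term per clone, the fall of A_33_P3248227 in the knockdown clones had an adjusted p of 0.0561.

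Probe base composition moved with the response of the control clones. Of the 7 PVT1 probes called lower there, the GC content was 45% to 60%. Among all tested probes with over 50% GC (n = 6095), the control clones had a median response of -0.51 and the knockdown clones one of -0.05, and 39.4% and 2.41% were called lower. Among probes with at most 40% GC (n = 10630), the medians were 0.13 and -0.09. After each clone's response had been corrected for its trend on GC content, the control clones had 10 probes of the named transcripts called lower and 8 higher, 16 of them among the 18 called without correction, and the PVT1 probe A_19_P00322939 and the MALAT1 probe A_19_P00805006 were no longer called. With the same correction the knockdown clones had the same 4 PVT1 probes called lower, and the difference in response of A_33_P3248227 was no longer called.

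The other 4 PVT1 probes were not called. They lie 95956, 96016, 194570 and 304870 bases from the first probe and changed by -0.39 to 0.27 in the control clones and by -0.23 to -0.08 in the knockdown clones. The first 3 of these 4 separated TET1-KD1 from the other clones. Without drug, A_21_P0005949 read 8.92 in CONT1, 8.91 in CONT2 and 8.90 in TET1-KD2 against 10.45 in TET1-KD1, and with drug 8.97, 9.23 and 8.89 against 10.31. This clone was thus above the others by over 1 on the log2 scale both before and after the drug at this probe, while at the brightest PVT1 probe the 4 clones differed little. The 3 probes were lower in TET1-KD2 than in TET1-KD1 by 1.09 to 1.55 before treatment, where the median absolute difference between these clones over all tested probes was 0.295 and the 95th percentile 1.30. With 1 array per clone and treatment this difference has no replicate. *MYC*, the transcription factor gene upstream of PVT1, changed by -0.53 in the control clones (adjusted p = 0.051) and by -0.77 in the knockdown clones (adjusted p = 0.0408). The 3 genes most like the brightest PVT1 probe were *ALDH1B1*, *PPP6C* and *MRS2*, with root mean square differences of 0.0856, 0.0906 and 0.0963.

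**Figure D3:**
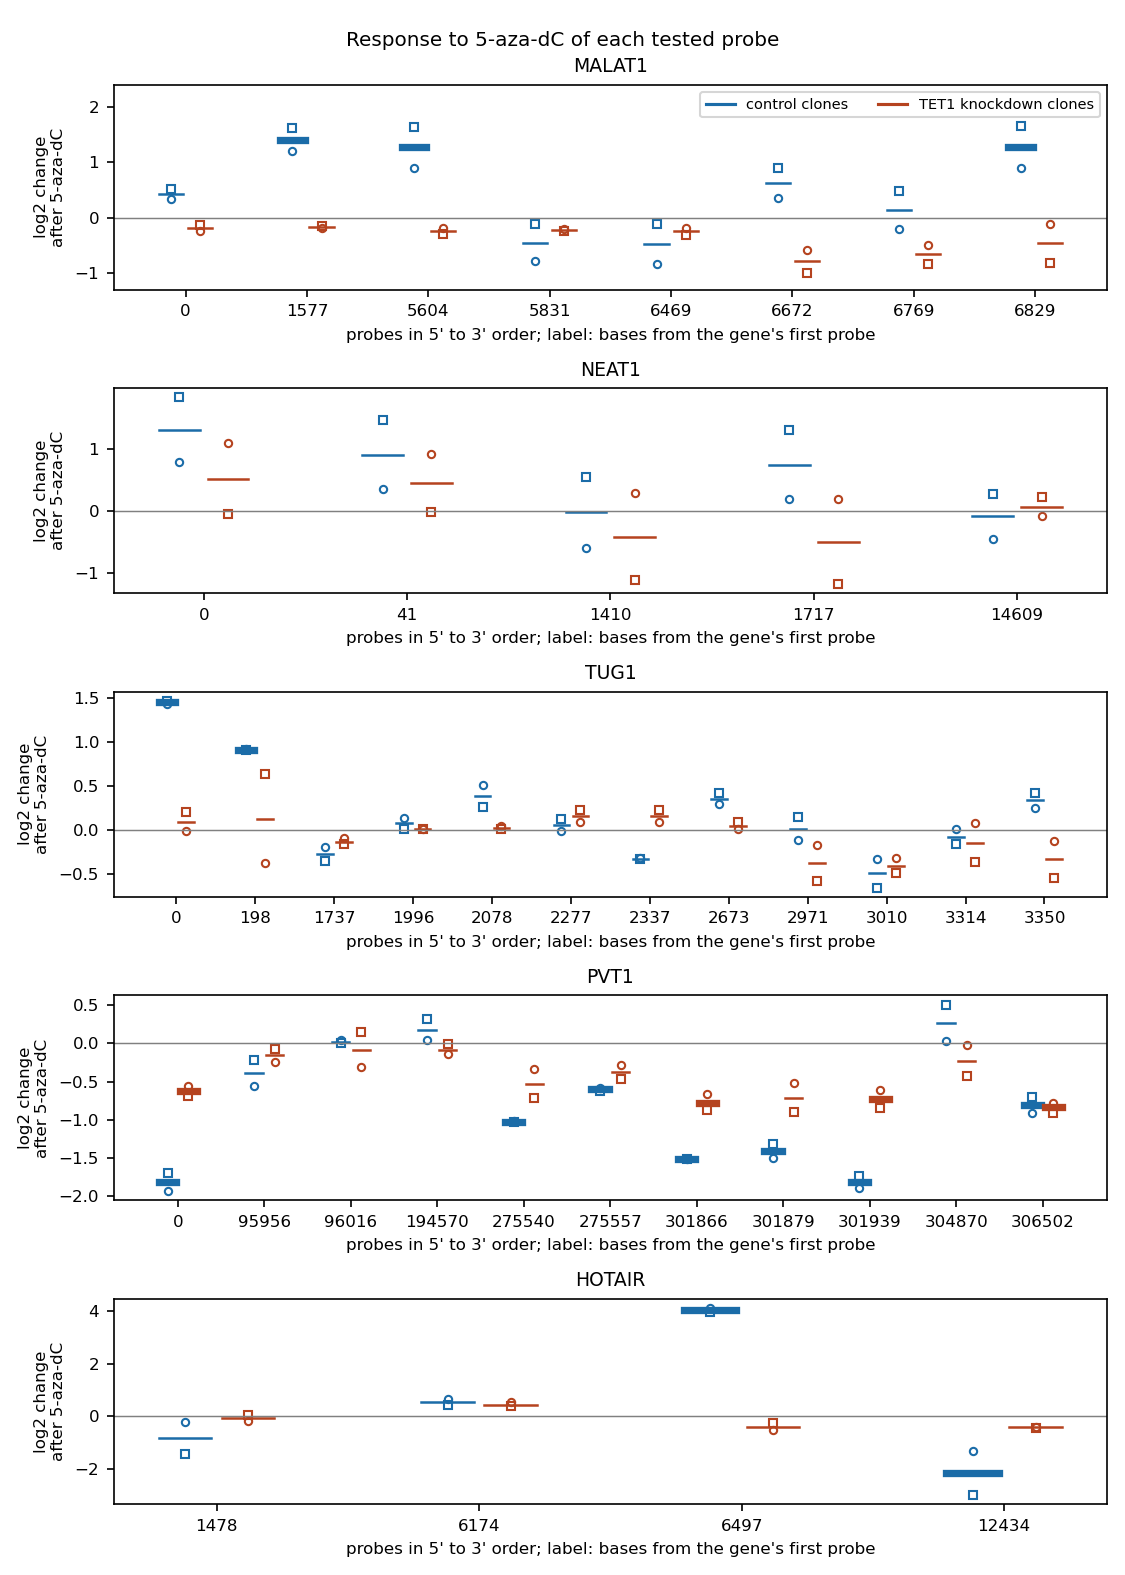
Log2 change after 5-aza-dC (vertical axis) of each tested probe of 5 transcripts, in order from the 5′ to the 3′ end and labeled by distance in bases; circles and squares are clones 1 and 2 of a kind, bars are the means, and thick bars mark changes that passed the test. PVT1 has 7 thick bars below 0 for the control and 4 for the knockdown clones, MALAT1 has 3 and TUG1 has 2 above 0 for the control clones, and NEAT1 has none.

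MALAT1 was covered by 8 probes on the plus strand of chromosome 11 (65267042 to 65273930), all above background on all 8 arrays, and they disagreed. The brightest, A_21_P0010981 at the 5′ end, read 16.27 and 16.09 in the untreated and 16.61 and 16.60 in the treated control clones. TET1-KD1 and TET1-KD2 read 16.85 and 16.57 before and 16.61 and 16.43 after treatment. Its change did not pass the test in the control clones (0.43 ± 0.17, adjusted p = 0.0884; 0.46 with adjusted p = 0.046 after normexp background correction) or in the knockdown clones (-0.19 ± 0.17, adjusted p = 0.528). Between treated clones it differed by -0.08 (adjusted p = 0.76), which turned to 0.66 (adjusted p = 0.0351) on the spike-in curve of slide 1. Of the other 7 probes, 3 were called higher in the control clones, by 1.27, 1.28 and 1.40 (the call of the second, A_19_P00805006, was lost when any 1 of the 4 arrays was left out, after GC correction and on the spike-in curve), while 2 had negative changes, of -0.45 and -0.48, that did not pass the test. The sequences show the probe with the largest rise and a probe farther downstream whose change was negative.
A_21_P0010982: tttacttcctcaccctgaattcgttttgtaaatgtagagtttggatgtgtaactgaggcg
A_24_P873659: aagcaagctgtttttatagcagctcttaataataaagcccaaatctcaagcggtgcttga

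The MALAT1 probe A_21_P0010982 went from 11.69 and 11.24 to 12.89 and 12.85 in the control clones, and from 12.15 and 11.93 to 11.97 and 11.78 in the knockdown clones. The treated control clones were above all other arrays. The rise in the control clones was 1.40 ± 0.20 (2.64-fold, adjusted p = 0.00295), the change in the knockdown clones -0.17 ± 0.20 (adjusted p = 0.647) and the difference in response -1.57 ± 0.28 (adjusted p = 0.0353). The latter call was lost when any 1 array was left out and after GC correction. A_24_P873659 read 8.81 and 8.23 before and 8.03 and 8.10 after treatment in the control clones, and 9.73 and 9.25 before and 9.53 and 9.0 after treatment in the knockdown clones. It was 1.2 ± 0.29 higher in treated knockdown than in treated control clones (adjusted p = 0.0379), the opposite direction to A_21_P0010982 (-0.99, adjusted p = 0.0219). Each of these 2 calls was made in 9 of 17 alternatives and was lost when any 1 of the 4 arrays was left out and when only these 4 were fitted. All 8 MALAT1 probes had negative changes in the knockdown clones, of -0.79 to -0.17. All 8 had a higher mean in untreated knockdown than in untreated control clones, by 0.23 to 1.02, with no call in either comparison. At A_19_P00325158, A_19_P00809614 and A_19_P00805006, untreated TET1-KD1 read 8.48, 9.16 and 10.21, below CONT1 at 8.85, 9.65 and 10.44. TET1-KD2 read 9.39, 10.06 and 11.20 there. Probes for 1 transcript share their RNA and are not replicates.

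TUG1 was read by 12 probes over 3410 bases of chromosome 22 (31371927 to 31375336, plus strand), all above background on all 8 arrays, with 2 overlapping pairs. The 2 probes nearest the 5′ end were called higher in the control clones and the other 10 were not. The first of them, which was also the brightest, is shown.
A_23_P68868: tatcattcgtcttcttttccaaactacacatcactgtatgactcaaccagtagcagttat
In CONT1 it read 10.65 before and 12.10 after the drug, in CONT2 10.19 and 11.66, and it read 11.20 and 10.98 before and 11.19 and 11.19 after treatment in the knockdown clones. The treated control clones stood above all other arrays, and the knockdown arrays overlapped with and without the drug. The rise was 1.46 ± 0.23 in the control clones (2.75-fold, adjusted p = 0.00433), the change 0.10 ± 0.23 in the knockdown clones (adjusted p = 0.821), and the difference in response -1.36 ± 0.33 (adjusted p = 0.0694, and 0.0438 with a term per clone). The second TUG1 probe, A_19_P00315693, 198 bases downstream, rose by 0.91 ± 0.25 in the control clones (adjusted p = 0.0283, and 0.0544 with a term per clone), a call lost when any 1 of the 4 arrays was left out.

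The other 10 TUG1 probes changed by -0.49 to 0.39 in the control clones and none was called. All 12 TUG1 probes were higher in untreated knockdown than in untreated control clones, by 0.35 to 0.76, where the median over all tested probes was 0.02 and 52.5% of them were above 0. None of the 12 passed the test, and the 12 probes share their RNA and are not replicates. For A_19_P00325015, for example, the values were 10.51 and 10.41 in CONT1 and CONT2 and 11.08 and 10.83 in TET1-KD1 and TET1-KD2 (0.50 ± 0.16, adjusted p = 0.541). After 5-aza-dC, 2 neighboring probes in the middle of the probe order, A_19_P00811561 and A_19_P00807057, were called higher in the knockdown clones, by 0.63 and 0.87 (adjusted p = 0.0399 and 0.0153). The first of these calls was made in 8 of 17 alternatives and the second in 12, and both were lost when only the 4 arrays compared were fitted. The first was also lost when any 1 of these arrays was left out, and the second without treated CONT2 or treated TET1-KD1. The 3 genes most like the brightest TUG1 probe were *ZNF585A*, *GSG1* and *ODF2L*, with root mean square differences of 0.0988, 0.111 and 0.127.

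NEAT1 lies on the plus strand of chromosome 11 and was read by 6 probes. No NEAT1 probe was called in any of the 5 comparisons. The probe A_19_P00321332, the brightest (65193885 to 65193944), lies in the part that both isoforms hold, and A_33_P3263538 lies in the part that only the long isoform holds. The first is shown because probes of the shared part separated the clones.
A_19_P00321332: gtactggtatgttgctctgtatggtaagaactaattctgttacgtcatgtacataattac

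The shared-part NEAT1 probe A_19_P00321332 read 13.85 and 13.53 in the untreated and 14.04 and 14.83 in the treated control clones. It read 12.58 in TET1-KD1 and 14.53 in TET1-KD2 before treatment, and 12.77 and 13.36 after it. TET1-KD1 was thus the lowest of the 4 clones with and without the drug, and the changes with the drug were 0.74 ± 0.64 in the control clones (adjusted p = 0.382) and -0.49 ± 0.64 in the knockdown clones (adjusted p = 0.672). At the first probe, A_21_P0011024, the untreated values were 7.0 in TET1-KD1 and 9.86 in TET1-KD2, a difference of 2.86, with CONT1 and CONT2 between them at 9.17 and 8.71. All 4 tested NEAT1 probes in the shared part were higher in TET1-KD2 than in TET1-KD1, by 1.95 to 2.86 before and by 0.59 to 1.79 after treatment. The long-isoform probe A_33_P3263538 read 8.30, 7.78, 7.98 and 7.85 in untreated CONT1, CONT2, TET1-KD1 and TET1-KD2. After treatment it read 7.86, 8.06, 7.90 and 8.08, so that the clones overlapped at this probe. The untested probe A_21_P0010978, annotated to the same transcript model, was above background on 2 arrays. It read 2.96 in TET1-KD1 and 4.91 in TET1-KD2 before treatment, and 2.87 and 4.60 after it.

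**Figure D4:**
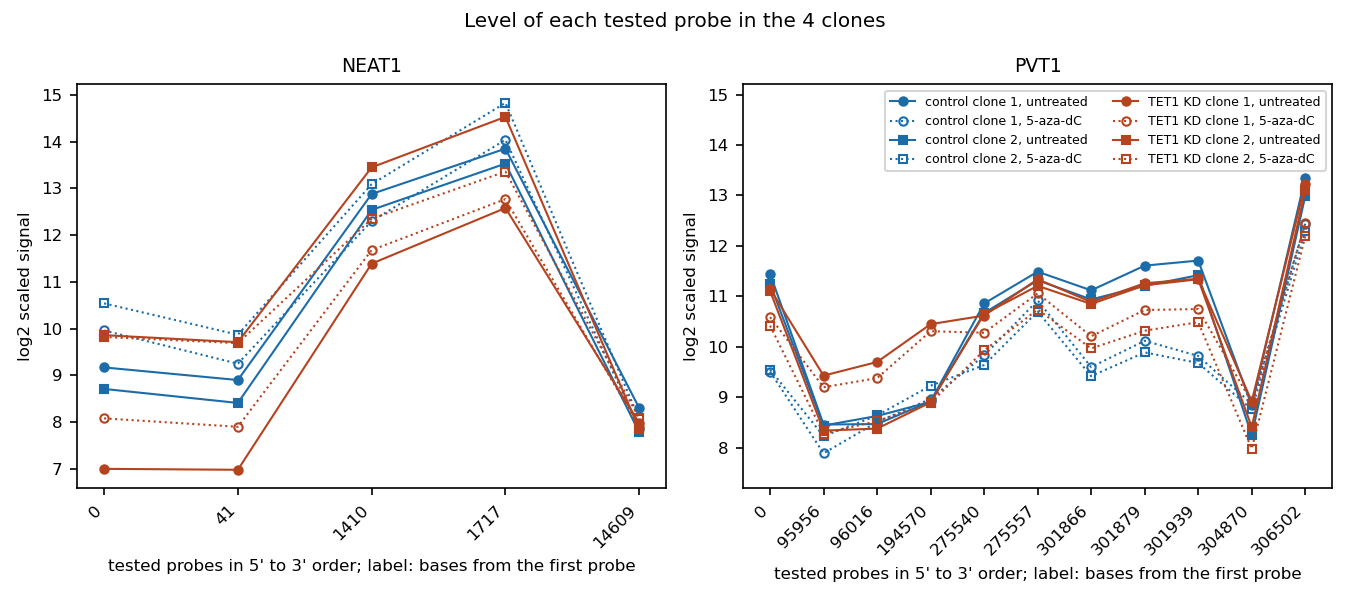
Log2 scaled signal (vertical axis) of the tested probes of NEAT1 and PVT1 in order from the 5′ to the 3′ end, labeled by distance in bases, in control (blue) and knockdown (red) clones; circles are clone 1, squares clone 2, solid lines untreated and dotted lines treated arrays. At the first NEAT1 probe the untreated knockdown clones stand at 7.0 and 9.86, and at the PVT1 probe 194570 bases from the first TET1-KD1 stands at 10.45 and 10.31 while the other arrays lie between 8.89 and 9.23.

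The proteins of paraspeckles, the bodies that NEAT1 organizes, were examined as a list of 15 genes, all of them tested. In the control clones 2 were called higher and 4 lower, in the knockdown clones 0 higher and 1 lower, and between treated clones 0 higher and 5 lower in the knockdown. Among all tested probes 19.2% and 22.6%, 8.91% and 2.90%, and 11.9% and 6.91% were called higher and lower in these comparisons. The control clones had a median change of -0.13 over this list and the knockdown clones one of -0.37, beside -0.08 and -0.07 over all tested probes. *HNRNPH3*, an RNA-binding protein of the hnRNP family, rose from 11.71 and 11.68 to 12.81 and 12.87 in the control clones (1.14 ± 0.14, adjusted p = 0.00162) and was 12.22 and 12.17 before and 11.86 and 11.98 after treatment in the knockdown clones (adjusted p = 0.253). *NUDT21*, a subunit of the cleavage factor that sets polyadenylation sites, fell by 1.21 in the control clones (adjusted p = 0.0223), and *TAF15*, an RNA-binding protein, fell by 0.86 (adjusted p = 0.00737).

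GAS5 was read by 1 probe, A_33_P3326285 (chromosome 1, 173833049 to 173833108, minus strand). Its log2 signal was 16.02 before and 16.21 after treatment in CONT1 and 16.09 and 16.37 in CONT2, and 16.14 and 15.97 before and 16.01 and 15.55 after treatment in the knockdown clones. The change was 0.24 in the control clones (95% interval -0.24 to 0.72, adjusted p = 0.365) and -0.27 in the knockdown clones (-0.75 to 0.20, adjusted p = 0.423), and GAS5 was called in no comparison. Among 12 tested host genes of small nucleolar RNAs other than GAS5, 1 was called higher and 2 lower in the control clones and 0 higher and 3 lower in the knockdown clones, with a median change of -0.15 and -0.44. Over all tested probes 19.2% were higher and 22.6% lower in the control clones and 8.91% and 2.90% in the knockdown clones, with medians of -0.08 and -0.07. *SNHG4* fell from 6.52 and 6.61 to 5.19 and 5.15 in the control clones (adjusted p = 0.00235) and from 6.61 and 6.60 to 5.77 and 5.32 in the knockdown clones (adjusted p = 0.0165). *SNHG7* fell by 0.52 and 0.67 (adjusted p = 0.0256 and 0.0284). Beside GAS5 on chromosome 1, *SERPINC1*, the gene of antithrombin, was at least 1.41-fold lower after treatment in the control clones, where neither treated array was above background, a description since it passed the filter only through the untreated control arrays. *SNHG1* fell by 0.77 in the knockdown clones (adjusted p = 0.0335), with a change of 0.17 in the control clones (adjusted p = 0.448).

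MIAT and HULC were at or near background. Of 14 MIAT probes (chromosome 22, 27053559 to 27072401, plus strand), 8 were above background on no array and 3 were tested, and these 3 went in opposite directions. The brightest, A_19_P00322828, read 5.68 before and 2.58 after the drug in CONT1 and 4.84 and 2.66 in CONT2, where neither treated array was above background. It read 5.11 and 5.13 before and 4.81 and 5.06 after treatment in the knockdown clones. It was at least 1.69-fold lower after treatment in the control clones (log2 change -2.64, adjusted p = 0.000995), and the treated knockdown clones were at least 1.35-fold above the treated control clones. The difference in response had a fitted value of 2.45 (adjusted p = 0.027), which includes the arrays below background. It was 0.59 with an offset of 50 (adjusted p = 0.13) and 0.41 with normexp (adjusted p = 0.357). The call was made in 7 of 20 alternatives. It was also lost after GC correction, with the probe's own variance and with no filter on dim probes. The MIAT probes A_19_P00318175 and A_19_P00322900, below background in the untreated control clones, were at least 1.92-fold and 2.32-fold higher after treatment, given as a description since they passed the filter only through treated arrays. For A_19_P00318175 the fitted difference in response was -3.08, opposite in sign to that of A_19_P00322828 and also resting on arrays below background. This value too is a description, since the probe was above background only in the treated control clones. The genes most like the brightest MIAT probe were *C17orf105*, *UCP3* and *OR1S1*, with root mean square differences of 0.139, 0.168 and 0.169. After normexp background correction with an offset, the change of A_19_P00322828 was -0.43 (adjusted p = 0.0734). The HULC probe A_33_P3222762 (chromosome 6, 8653917 to 8653976) read 1.99 to 3.26 on the 8 arrays, below background on each, and was not tested.

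Among 25 other tested long noncoding RNAs that are commonly named, 7 were called higher and 4 lower in the control clones and 4 higher and 0 lower in the knockdown clones, beside 19.2% and 22.6%, and 8.91% and 2.90%, of all tested probes. Their median change was -0.06 in the control and 0.26 in the knockdown clones, beside -0.08 and -0.07. *MEG8*, an imprinted transcript, was below background in untreated clones and reached 7.54 and 7.51 with the drug in CONT1 and CONT2 and 7.05 and 6.73 in TET1-KD1 and TET1-KD2, at least 9.24-fold and 5.61-fold higher. *TP53TG1* was at least 6.75-fold and 4.28-fold higher. *KCNQ1OT1*, the antisense transcript of the imprinted *KCNQ1* locus, was at least 5.19-fold higher in the control clones and did not pass the test in the knockdown clones (adjusted p = 0.301). *MEG8*, *TP53TG1*, *KCNQ1OT1* and *DIO3OS*, all among the 7 called higher in the control clones, passed the filter only through treated arrays, where they are high. So did *MEG8* and *TP53TG1* among the 4 called higher in the knockdown clones. The calls of these transcripts therefore lend no support to a rise, and the bounds are descriptions. *MEG3* and *MIR31HG*, above background on all 8 arrays, were also called higher in both kinds of clone. *MEG3* rose by 1.48 in the control and 1.06 in the knockdown clones (limma, adjusted p = 0.000863 and 0.00696). *MIR31HG* rose by 2.48 and 1.35 (limma, adjusted p = 0.000421 and 0.00928).

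RefSeq promoter windows (GRCh38.p14) around the transcript start were at hand for 4 of the 9 transcripts. The number of CpG dinucleotides in the 300 bases was 5 for GAS5, 37 and 14 for the 2 starts of MALAT1, 3 for MIAT and 28 for TUG1, against a median of 14 over 35116 windows. Methylation of these windows was not measured here.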

How the data were processed

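Total RNA of the 8 cultures was amplified, labeled with 1 color and hybridized to SurePrint G3 Human GE arrays. The deposited files are the scanner output, in which Agilent Feature Extraction 10.7.3.1 had subtracted background from each spot's intensity, and the authors' table of the same intensity values rounded to 3 significant digits (largest relative difference 0.497%), neither normalized between arrays. The submitters' processing notes name Agilent Feature Extraction 10.7. Positions and gene names are those of the files (hg19). Their normalization in the study is not given in the sources used here.

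Processed signals of 58717 non-control spots were divided by the array's 75th percentile (396 to 624) and multiplied by the geometric mean of these percentiles, floored at 1 and taken to log2. Flagged spots were left out and spots of 1 probe averaged, and 50543 of 50599 probes then had values for all arrays. Above background means a share of 0.5 or more of a probe's spots well above it, and testing required this of both arrays of some condition. Group means were fitted over all 8 arrays with limma 3.58.1 in R 4.3.3, with Benjamini-Hochberg adjustment over 27287 probes, and intervals are unadjusted. Where a group was not above background on either array, the fold is a bound against the lowest signal above background. The functions were tested on simulated data. Repeated probes varied by a median of 3.25% to 4.82% within an array; the number of clones limits the precision, and p-values measure the spread between clones.

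The members and the lists were chosen with earlier results of these data known. Every member was named and all of its probes were counted, but not every probe was described by name. The brightest probe carried a gene's value. Of each list the 3 called genes with the largest change were named. Outside this rule, *HOXC13*, *HOXA2*, *HOXA3* and *MYC* were added as neighbors after their values were seen, and *MEG3*, *MIR31HG* and *DIO3OS* were added as well. The clone numbers come from the labels and pair untreated with treated arrays; deviations from the group means correlated at 0.198 in control and 0.476 in knockdown clones. Values with a term per clone are given where they change a call of a named transcript, except for probes tested only through treated arrays. Alternatives were normexp, quantile normalization, other filters, an offset of 50, flagged spots kept, fewer arrays, the methods' t-test, unmoderated variances, the clone as a block, GC correction (loess, span 0.5), the deposited table, a 2-fold minimum, leaving out each array, and, chosen after seeing the data, a spike-in curve. Plots were drawn with matplotlib 3.10.9.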

Additional observations from a re-analysis of the deposited data

Results flagged for a closer look

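For 4 probes, each of another transcript, the response to 5-aza-dC differed between *TET1* knockdown and control clones in the test of that difference itself (limma, response of the knockdown minus response of the control clones, log2 scale). The values were -4.45 for the HOTAIR probe A_19_P00329806, -1.57 for the MALAT1 probe A_21_P0010982, 2.45 for the MIAT probe A_19_P00322828 and 1.19 for the PVT1 probe A_33_P3248227. The MIAT probe was below background on both treated control arrays, so that 2.45 is no exact size, and it was 0.41 with normexp and 0.59 with an offset of 50. The call of the MIAT probe was made in 7 of 20 alternatives. All 4 differences include the treated control clones, which lie on a slide of their own, so that slide and treatment cannot be told apart. No condition had enough arrays to look for a single array far from the others.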

How the results depend on the processing

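Of the 45 tested probes, 18 were called in the control clones, 4 in the knockdown clones, 0 between untreated clones, 9 between treated clones and 4 for the difference in response. In the knockdown clones the count was 1 after quantile normalization or with no filter on dim probes. The probe called with no filter was not among the 4 PVT1 probes called with the filter. The count was 2 with probes above background on all 8 arrays or with each probe's own variance. It was 0 with only the 4 arrays compared, without both treated control arrays, by the methods' t-test or with at least a 2-fold change. The methods' t-test gave 3 in the control clones and 0 between treated clones, where only the 4 arrays compared gave 2 and a 2-fold minimum 4. The difference in response gave 1 with no filter or after GC correction, and 2 with each probe's own variance or with a replicate block and GC correction. The replicate block alone gave 18, 3 and 5. Leaving out 1 array gave 11 to 14 probes in the control clones (11 without untreated CONT1), 0 to 1 in the knockdown clones, 0 between untreated clones, 2 to 6 between treated clones (2 without treated TET1-KD1) and 0 to 2 for the difference in response (0 without untreated CONT1). A lone array was assumed to vary like the other groups.

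Averaging all tested probes turned the sign for MIAT, to 0.92 in the control clones, -0.32 between treated clones and -0.76 for the difference in response. The spike-in curve, chosen after seeing the data, turned the MALAT1 difference between treated clones to 0.66. Of 777 values of single transcripts under an alternative, 712 stayed the same, 43 lost a call, 3 gained one, 15 moved and 4 reversed. A tested value stayed the same if it kept its side of the threshold, 30 of them with a sign change where neither value was called. Means over all tested probes have no test. They were counted as the same if within the SE of the brightest probe's value. The 15 that moved were means beyond it, and the MIAT means were among the 4 that reversed. The causes were not tested.

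Scaling moved the balance of all calls. Of those in the control clones 45.9% were higher, and 30.6% on the spike-in curve. In the knockdown clones 75.5% were higher, against 64.3% with normexp, 62.1% with quantile normalization and 62.0% with an offset of 50. Between treated clones the share was 63.2%, against 44.9% with normexp and 80.6% on the spike-in curve, and for the difference in response 72.1%, against 52.2% with normexp, 57.3% with the offset and 85.9% on the spike-in curve. The median response of all probes in the control clones was -0.08, -0.20 after quantile normalization and -0.33 on the spike-in curve. Signals near background limit MIAT, HULC and all but 1 HOTAIR probe.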
